A study of Mus musculus with 12 samples.

Results

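The keratin genes and the keratin-associated protein (Krtap) genes were examined for copy number in a pair of primary murine pancreatic ductal adenocarcinoma (PDAC) lines. Members were all gene names that begin with Krt and a number, or with Krtap, in the autosomal segments of both lines. The rule found 97 of 21139 gene names, and the same 97 names in each line. They comprised 55 keratin genes (28 of type I and 27 of type II) and 42 Krtap genes, and they lay on 5 chromosomes.

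Whole-exome sequencing (WES) of genomic DNA gave a single library for each line (WES-15376T and WES-14837T), so no value below has a replicate and no test between the lines was possible. Both lines came from genetically engineered C57BL/6 mice that carried, among their alleles, ROSA26-LSL-rtTA-IRES-GFP, p48-Cre and Trp53 L/+, and both were maintained with doxycycline, the ligand of rtTA. The Cre is driven by p48 (Ptf1a), a gene of the pancreatic progenitor and acinar lineage, and the sample labels give the genotype of both lines as WT. Line 15376T was used in the study as a line with high Lin28b and 14837T as a line without it. RNA was not analysed here, so the values are of DNA and say nothing of whether a keratin was expressed.

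Keratins form the intermediate filaments of epithelial cells. An acidic type I keratin pairs with a basic type II keratin, so each filament needs a product of both gene families, which sit in separate clusters of the genome. Simple epithelia such as the pancreatic ducts are known for Krt8 and Krt18 with Krt7 and Krt19, the basal layer of the epidermis for Krt5 and Krt14, and its upper layers for Krt1 and Krt10. Krtap proteins are small proteins, rich in cysteine or in glycine and tyrosine, that surround and cross-link the keratin filaments of the hair shaft.

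By RefSeq positions on GRCm38.p6, the type I cluster of chromosome 11 held 42 members from Krt222 to Krt42 (chr11:99232761-100269951), which were 27 type I keratin genes with 15 Krtap genes between them. The type II cluster of chromosome 15 held 28 members from Krt80 to Krt18 (chr15:101348315-102032026), which were all 27 type II keratin genes and Krt18, a type I gene that lies beside its partner Krt8. The 21 Krtap genes of chromosome 16 ran from Krtap24-1 to Krtap11-1 (chr16:88610709-89571183). The 3 Krtap genes of chromosome 7 ran from Krtap5-3 to Krtap5-4 (chr7:142201364-142304503), and the 3 of chromosome 10 were Krtap12-1, Krtap10-4 and Krtap10-10 (chr10:77720586-77837251). Krt85 had no position in the RefSeq table and was placed on chromosome 15 by its segment alone. The families differ in size, since the median gene length was 6.35 kb for type I (2.81 to 15.1 kb), 8.42 kb for the 26 type II genes with a position (4.27 to 50.6 kb) and 0.761 kb for Krtap genes (0.304 to 1.89 kb).

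The DNA before the start site of these genes has a shared feature. The letters TATAAA, the core of the TATA box, began between 40 and 20 bases before the RefSeq start site on the gene's own strand in 33 of the 74 member promoters in the table (44.6%, 73 genes), against 2.0% of all 32851 promoters. Stretches of 30 bases are shown for the Krtap genes on either side of the segment border of chromosome 11, for members of the chromosome 16 and 7 clusters with their own read depth, and for keratin genes of both types. Each is read 5′ to 3′ on the gene's strand from GRCm38.p6, and capitals mark TATAAA. For Krt10 the start site of the promoter lies inside the RefSeq bounds of the gene (chr11:99385254-99397449), not at their 5′ end.
Krtap2-4 (chr11:99614856-99614885, minus strand, motif at -27): actgttcaggtaTATAAAgggacccaacct
Krtap4-9 (chr11:99785151-99785180, plus strand, motif at -37): ccctcagcagggTATAAAaggggatgtggg
Krtap11-1 (chr16:89571194-89571223, minus strand, motif at -28): tgagcaaggataTATAAAaagcccagggtc
Krtap8-1 (chr16:89487964-89487993, minus strand, motif at -29): ccagtcggggtaTATAAAgatggtctgaga
Krtap5-1 (chr7:142297147-142297176, minus strand, motif at -30): cttgggcagggaTATAAAgaccccagggtc
Krt10 (chr11:99389373-99389402, minus strand, motif at -26): gccctctcagtaTATAAAggctcggcactg
Krt20 (chr11:99438165-99438194, minus strand, motif at -29): tctcttgaactcTATAAAaggtcatctcca
Krt76 (chr15:101892932-101892961, minus strand, motif at -29): ggcagcctgggaTATAAAggccagcttccc

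The share with the motif in that window differed between the families, and the members are not independent of each other, because many arose by duplication. It was 54.1% in Krtap genes (20 of 37), 45.5% in type I keratin genes (10 of 22 promoters) and 20% in type II keratin genes (3 of 15). Among Krtap genes it was 11 of 13 on chromosome 11, 8 of 20 on chromosome 16, 1 of 3 on chromosome 7 and 0 of 1 on chromosome 10. Over the whole 300 bases, from 250 before to 50 after the start, the motif was found on the gene's strand in 60.8% of member promoters and 8.32% of all promoters, and on the other strand in 10.8% and 6.95%. The median GC content of the same windows was 41.3% in Krtap genes, 45.8% in type I and 53% in type II keratin genes, against 52.7% in all promoters, and its part in the motif shares was not tested. The closest pair of member promoters was that of Krtap31-1 and Krtap31-2, both on chromosome 11, with 247 of 300 positions identical (82.3%), and the next pair had 126. A match is a description of the letters and was not tied to any copy-number value. Only genes with the motif in the window were printed, so the stretches do not show how common it is. Krt76, Krtap5-1 and Krtap8-1 of the printed genes, and the Krtap31 pair, were in addition named only after the sequences were seen.

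For each segment, a run of neighboring bins with a common coverage, the authors deposited the log2 ratio of its coverage to a reference, the called copies, the mean read depth and the BAF (B-allele fraction, the share of reads with the other allele at variant sites). A log2 above 0.2 was called a gain and a log2 at or below -0.25 a loss. The SD of log2 among autosomal segments at 2 copies served as the spread, at 0.090 for the 103 such segments of WES-15376T and 0.095 for the 96 of WES-14837T. Those segments lie between the call thresholds by definition, so this SD is a yardstick only. It is not the error of a segment or of a difference between the lines. The mean depth over bins was 43.4 and 47.5. All members of a segment share its value, so the 97 genes gave 6 segment values in each line.

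No keratin gene was lost in either line, and no Krtap gene was gained. In WES-15376T, 0 of the 97 members were in gained segments, where 9.09% of all gene names were, 24 were in lost segments (24.7%, against 30.0%) and 73 were at 2 copies (75.3%, against 60.9%). In WES-14837T, 28 members were gained (28.9%, against 21.4% of all gene names), 27 were lost (27.8%, against 28.8%) and 42 were at 2 copies (43.3%, against 49.8%). The call differed between the lines for 31 members (32.0%, against 29.3% of all gene names), so as a whole the members differed about as often as other genes. The difference lay in the chromosome segments, and the families followed from their places, so the genes of a family are not independent observations. All 27 type II keratin genes had 2 copies in WES-15376T against 3 copies in the other line, whereas 27 of the 28 type I genes had 2 copies in both (96.4%, against 41.5% of all gene names). Of the 42 Krtap genes, 24 were lost in both lines (57.1%, against 22.4% of all gene names). Another 15 had 2 copies in both (35.7%, against the same 41.5%), and 3 differed (7.14%, against 29.3% of all gene names). These calls depend on the threshold. At an absolute log2 of 0.5, 24 members differed in call, none of them among the 31, and all 24 were the Krtap genes lost in both lines at the thresholds above.

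**Figure D1:**
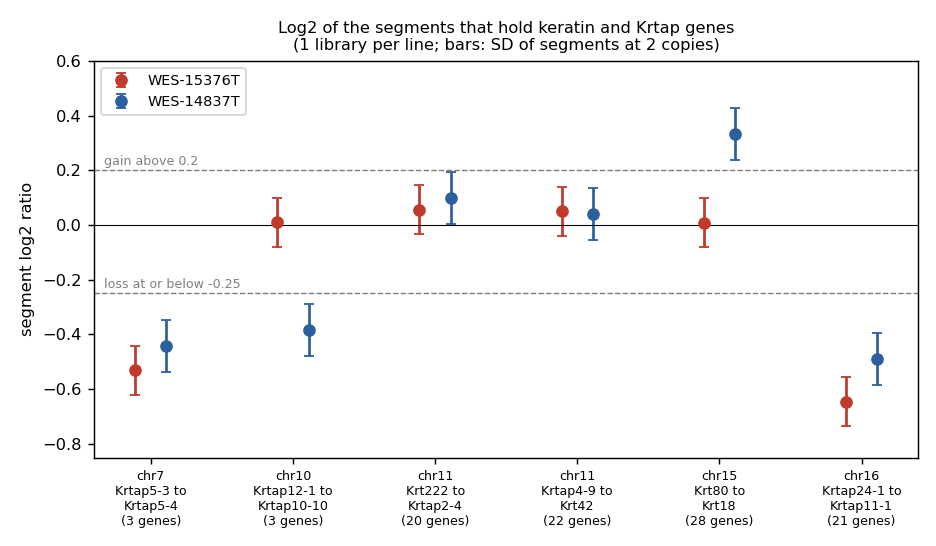
Log2 ratio (vertical axis) of the 6 segments that hold the members in each line, with 1 point per line, error bars of 1 SD of log2 among that line's segments at 2 copies, and dashed lines at the call thresholds. The lines stand apart at chromosome 10 (0.010 and -0.38) and chromosome 15 (0.0086 and 0.33), while both points lie below -0.25 for chromosomes 7 and 16 and between the thresholds for chromosome 11.

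The type II cluster carried the gain. Its segment had a log2 of 0.0086 and a BAF of 0.068 in WES-15376T (chr15:96609793-102084384, 1274 bins, mean depth 44.8). In WES-14837T it had a log2 of 0.33 and a BAF of 0.056 (chr15:94394573-103943185, 1876 bins, mean depth 60.5). The difference (WES-15376T less WES-14837T, as for all differences of the lines given here) was -0.33, or -3.62 times the SD of the first line and -3.41 times that of the other. The difference of the depths alone, each divided by the line's median depth of segments at 2 copies, was -0.37 on the log2 scale. The gained genes included Krt7 and Krt8, the type II keratins of ductal cells, Krt5 of basal cells and Krt1 of the upper epidermis, and Krt18 as the sole type I member. The log2 of WES-14837T lay 0.13 above the threshold for a gain, where the SD was 0.095.

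Both lines had gains on chromosome 15, and they overlapped in part, but only those of WES-14837T reached the keratin genes. In WES-15376T the gained segments lay between positions 54845759 and 83300102, with log2 values of 0.26 to 0.79, and the last of them ended 18.0 Mb before Krt80. From there to the keratin genes the segments were at 2 copies, with log2 values of -0.043 and -0.22. In WES-14837T the gained segments took in much of the chromosome, between positions 3274655 and 103943185, with log2 values of 0.23 to 0.33. Segments at 2 copies lay between them. The keratin segment had the highest log2 of the chromosome in that line, and it ran to the end of the covered sequence. Its start lay 6.95 Mb before Krt80, after a segment at 2 copies with a log2 of 0.028. Past the other end of the cluster, a small segment of WES-15376T at 1 copy (chr15:102084707-102148282, log2 -0.39, 51 bins, BAF 0) began 52.4 kb after the end of Krt18, the member nearest to it. No member lay in it, and its genes were Eif4b, Igfbp6, Spryd3 and Tns2.

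**Figure D2:**
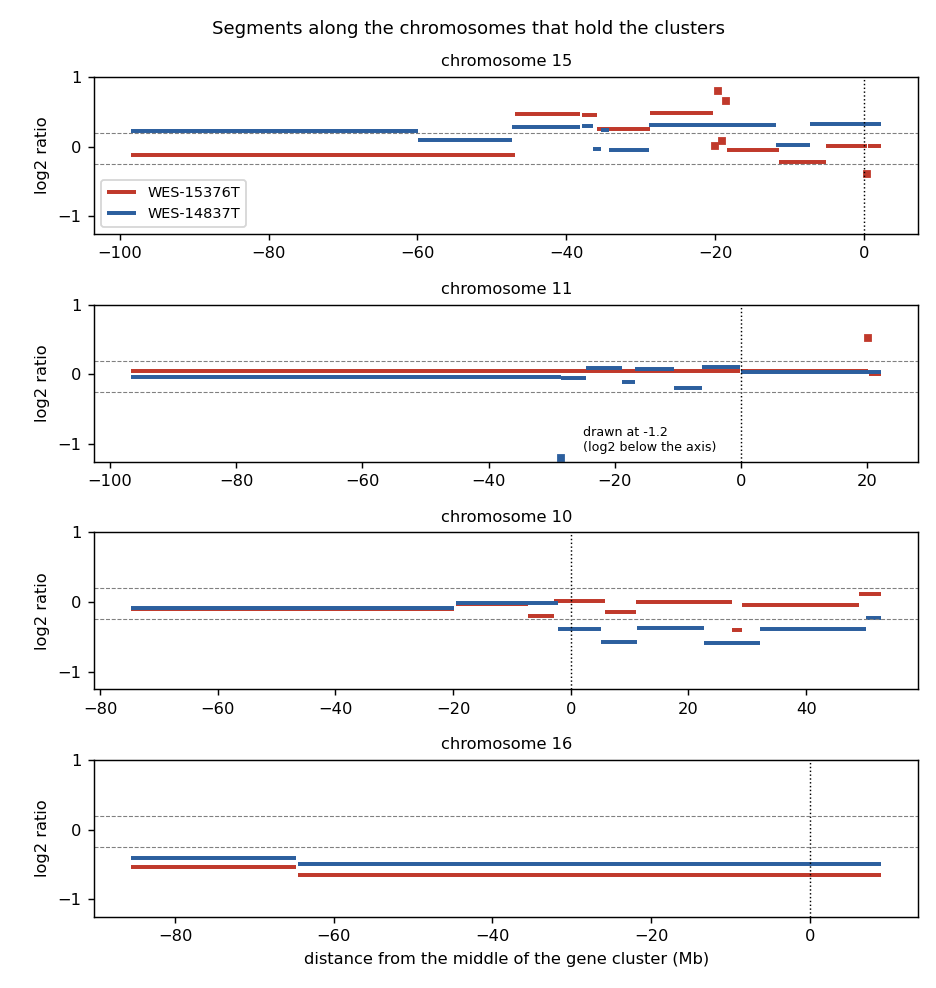
Log2 ratio of every segment (vertical axis) along chromosomes 15, 11, 10 and 16 against the distance in Mb from the middle of the gene cluster (dotted line at 0), with WES-15376T in red and WES-14837T in blue; segments shorter than 1 Mb also carry a square, and 1 segment of WES-14837T with a log2 of -8.74 is drawn at -1.2. At the dotted line only WES-14837T is above the gain threshold on chromosome 15, only WES-14837T is below the loss threshold on chromosome 10, the line falls in the gap without bins on chromosome 11 with segments at 2 copies on either side in both lines, and both are below the loss threshold on chromosome 16.

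The type I cluster of chromosome 11 was at 2 copies throughout. It was the only cluster with members in more than 1 segment, and in each line a border split it into the 20 members from Krt222 to Krtap2-4 and the 22 from Krtap4-9 to Krt42. Krt10 and Krt20 (a keratin of the gut epithelium) lay in the first part, and Krt19, Krt14 and Krt17 in the other. The log2 of the first part was 0.056 for WES-15376T (chr11:3133019-99620437, 11932 bins) and 0.10 for WES-14837T (chr11:93600887-99620437, 1492 bins). The other part had a log2 of 0.050 (chr11:99785922-119846967, 4026 bins) and 0.040 (chr11:99785922-121956076, 4678 bins). The lines differed by -0.044 and 0.0097, both well under 1 SD.

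The border inside the type I cluster was not a step in copy number. The log2 step across it was -0.0061 in the first line and -0.060 in WES-14837T, where the median absolute step between neighboring autosomal segments was 0.25 and 0.23. Only 1 of the 164 borders of WES-15376T, and 6 of the 205 of WES-14837T, had a step this small, the border itself included. It was a stretch without bins, 165 kb long (chr11:99620438-99785921), with the same ends in both lines, where the median gap between segments was 500 bases. On each of the 19 autosomes the widest gap was shared by the lines in the same way, and 25 borders were shared in all. RefSeq places 9 genes in the gap, of which 5 are Krtap genes (Krtap4-1, Krtap4-2, Krtap4-7, Krtap4-6 and Krtap4-8), and none of these is among the members. Of the Krtap4 genes, 1 is a member and 7 further ones are in RefSeq. Krtap2-4 ends 5.59 kb before the gap, and the first base of Krtap4-9 lies 722 bases inside it.

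The BAF did differ at this border, in 1 line. In WES-15376T it was 1 before the gap, in the segment of Krt10 and Krt20, and 0.04 after it, in the segment of Krt14, Krt17 and Krt19. In WES-14837T it was 0.056 before and 0.055 after. The BAF of 1 is that of a whole segment of 96.5 Mb, so it does not place a change at the keratin genes. Segments of WES-14837T within that stretch, from chr11:71172030 to chr11:89088733, had a BAF of 0.97 to 1. A BAF of at least 0.9 was rare, at 4 of the 158 autosomal segments with a BAF in the first line and 6 of 193 in the other. The median BAF, weighted by segment length, was 0.077 and 0.061. The number of variants behind a BAF was not part of the tables, so its error is unknown.

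Every segment of chromosome 16 was at 1 copy in both lines. The first (chr16:3592388-24292907, without members) stood at -0.54 on the log2 scale for WES-15376T and -0.40 for WES-14837T. A stretch without bins followed it, so the border after it does not place an edge of the loss. The Krtap genes of chromosome 16, the largest group of Krtap genes, were thus lost in both lines along with the rest of the covered chromosome. Their segment had the same ends in both (chr16:24608101-98082498), with a log2 of -0.65 in WES-15376T (4416 bins, mean depth 29.1, BAF 0.086) and -0.49 in WES-14837T (4418 bins, mean depth 34.1, BAF 0.055). The lines differed by -0.16, or -1.74 and -1.64 times the SD. These were the lowest values of any member in either line. The neighbors in that order were the 3 Krtap5 genes of chromosome 7, higher by 0.11 in the first line, which exceeded its SD, and by 0.048 in the other, which did not.

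The Krtap5 genes were lost in both lines, as was nearly all of chromosome 7. The lines differed in how that loss was cut into segments. In WES-15376T the segment spanned chr7:23274282-145340959 (13453 bins, log2 -0.53, BAF 0.094). In WES-14837T it spanned chr7:141755046-145340959 (626 bins, log2 -0.44, BAF 0.053) and began 446 kb before Krtap5-3. The lines differed by -0.090, within 1 SD. In WES-15376T the rest of the covered chromosome was also at 1 copy (log2 -0.54). In WES-14837T the segment just before that of Krtap5-3 was at 1 copy too (log2 -0.31). The sole segment of the chromosome at 2 copies in that line was chr7:45121731-45820084 (log2 -0.24).

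The 3 Krtap genes of chromosome 10 stood at 2 copies in WES-15376T and were lost in WES-14837T. The segment of Krtap12-1, Krtap10-4 and Krtap10-10 had a log2 of 0.010 in WES-15376T, with a BAF of 0.16 (chr10:74959516-83608785, 2196 bins). In WES-14837T it had a log2 of -0.38 and a BAF of 0.11 (chr10:75639546-82896070, 1986 bins). The lines differed by 0.39, or 4.37 and 4.12 times the SD, the widest gap of any cluster. The difference of the scaled depths was 0.37. In WES-14837T the chromosome was at 2 copies up to 2.08 Mb before Krtap12-1 (log2 of the last such segment -0.019). From there to the last segment but 1 the segments had log2 values of -0.37 to -0.58, and the last had -0.23.

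Because type I and type II genes, but for Krt18, lie on different chromosomes, the gene copies of each filament pair can differ. This is a comparison of DNA and not of the proteins. For 10 textbook pairs of a type II with a type I keratin, chosen after the values were seen, the copy numbers were equal in 10 of 10 in WES-15376T, with log2 differences (type II less type I) from -0.047 to 0. In WES-14837T they were equal in 1 of 10, the pair Krt8 and Krt18, which share a segment. In the other 9 the type II gene was called at 3 copies and the type I gene at 2. The difference was 0.29 for pairs such as Krt7 with Krt19 and Krt5 with Krt14, and 0.23 for Krt1 with Krt10. The 10 pairs rest on 3 segments and are not independent, so the counts follow from the segment values.

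A read depth of a single gene was listed only for genes in segments with an absolute log2 of about 0.40 or more, which held for 24 members in both lines. These were the 21 Krtap genes of chromosome 16 and the 3 of chromosome 7, so no keratin gene had a depth of its own here. Of the 24, 22 rested on 1 bin and 2 on 2 bins, and the bins spanned 120 to 840 bases. Many Krtap genes arose by duplication, and the likeness of their sequences in these bins was not measured. How reads that match several genes were counted is not given in the sources used here, so each depth is uncertain in that respect. The depth ranged from 14.2 to 69.3 in WES-15376T (median 36.0) and from 19.9 to 96.9 in WES-14837T (median 45.4), a spread of 4.90-fold and 4.87-fold among genes at the same called copy number. The lowest and the highest gene were the same in both lines. They were Krtap14 (14.2 and 19.9) and Krtap19-2 (69.3 and 96.9), both named after their values were seen.

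**Figure D3:**
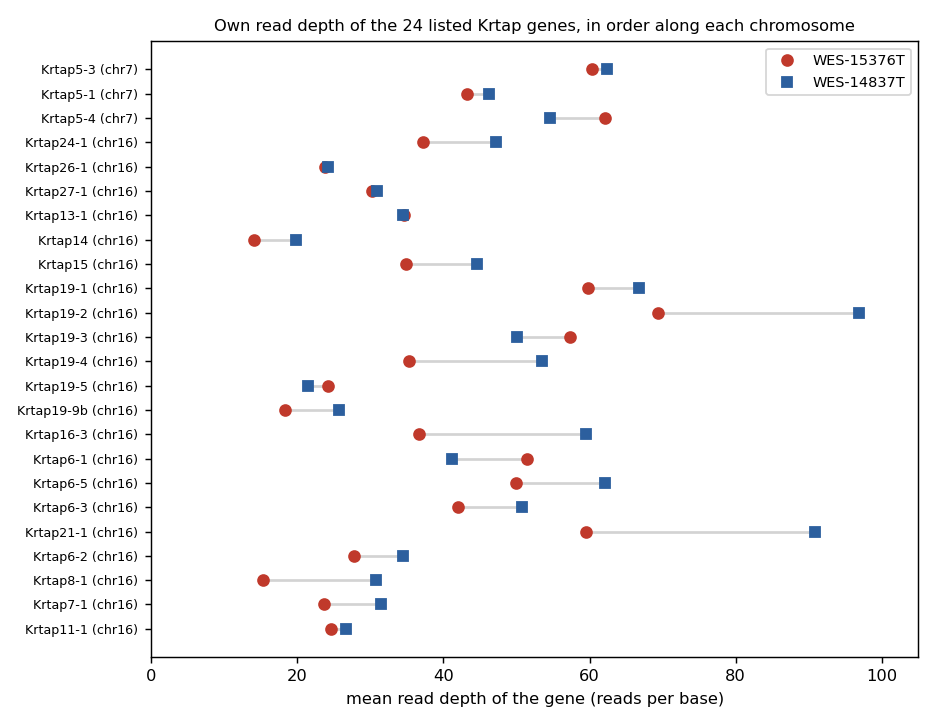
Mean read depth (horizontal axis, reads per base) of the 24 Krtap genes with a listed depth, in order along chromosomes 7 and 16, with circles for WES-15376T and squares for WES-14837T, 1 library each. Low and high genes are mostly the same in both lines, from 14.2 and 19.9 in Krtap14 to 69.3 and 96.9 in Krtap19-2, and the square lies to the right in 19 of 24.

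Set against the mean depth of their segment, the genes with a depth were at a median log2 ratio of 0.31 (SD across genes 0.65) in the first line and 0.42 (SD 0.62) in WES-14837T. The 686 other genes with 1 bin had 0.51 (SD 0.85) and 0.44 (SD 0.81), so the Krtap genes lay within the range of other small genes. In both lines 15 of the 24 were above their segment and 7 were below it. The other genes with 1 bin also lay above their segments in the median, as given above. Among the members with 2 bins, Krtap27-1 had depths of 30.2 and 30.9, at log2 ratios of 0.054 and -0.14 to its segment, and Krtap6-2 had 27.8 and 34.5, at -0.066 and 0.017. At the ends of the clusters, Krtap24-1 had 37.2 and 47.2, Krtap11-1 24.6 and 26.7, Krtap5-3 60.3 and 62.5, and Krtap5-4 62.1 and 54.5. Across the 24 genes these log2 ratios in one line tracked those in the other at a Pearson r of 0.88, beside 0.93 over the other genes with 1 bin. The genes share probes, library preparation and base composition between the lines, and r is given as a description.

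The depth ratio of the lines per gene, less the log2 difference of the segments, shows where a gene departs from its segment in 1 line only. Its median was -0.070 with an SD of 0.32 across the 24 genes. The other genes with 1 bin had a median of -0.020 and an SD of 0.30, and 1983 other genes with at least 5 bins had an SD of 0.15. The spread of the Krtap genes was thus close to that of other genes with 1 bin, and about 2 times that of genes with more bins. On chromosome 16, where 21 of the 24 members lie, the 124 other genes with 1 bin had an SD of 0.38. How many of the other genes with 1 bin lay beyond 1 or 2 SD was not counted. By the SD of 0.30 of all other genes with 1 bin, 8 of 24 members were beyond 1 SD and 1 was beyond 2 SD. That gene was Krtap8-1, with a value of -0.78 and depths of 15.4 and 30.9, and 0.87% of the other genes with 1 bin were lower. At the other end was Krtap6-1, with depths of 51.5 and 41.3 and a value of 0.54. Both were named after their values were seen and both rest on 1 bin of 240 bases.

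**Figure D4:**
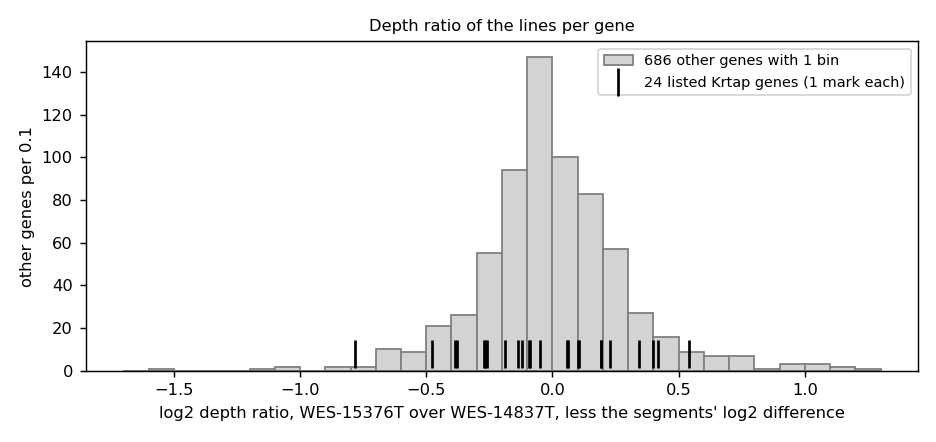
Number of the 686 other genes with 1 bin (vertical axis, grey bars 0.1 wide) by the log2 depth ratio of WES-15376T over WES-14837T less the log2 difference of their segments (horizontal axis), with 1 black mark for each of the 24 Krtap genes. The marks spread over the body of the grey bars, from -0.78 (Krtap8-1) to 0.54 (Krtap6-1).

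Other genes of the keratin filament system were followed in a list of 44, which holds other intermediate filaments, desmosome and linker proteins, proteins of the cornified envelope and hair sheath, and regulators. For 43 of them a segment was found. In WES-15376T, 2 were gained, 13 lost and 28 at 2 copies, and in WES-14837T, 13 were gained, 13 lost and 17 at 2 copies. The shares of all gene names were 9.09%, 30.0% and 60.9% in WES-15376T, and 21.4%, 28.8% and 49.8% in WES-14837T. The call differed for 15 of the 43 (34.9%, against 29.3% of all gene names), and 7 of the 15 lay on chromosome 3. Of the 43, 7 lay in a segment with members in both lines and had the values of the keratin or Krtap genes there. Prph (peripherin, a filament of neurons) shared the gain of the type II keratins, Lmnb2 (a nuclear lamin) shared the loss of the chromosome 10 Krtap genes, and Trp63 (a regulator of basal epithelial cells) shared the loss of the chromosome 16 Krtap genes. Gfap, Jup, Evpl and Itgb4 shared the segment of Krt14, Krt17 and Krt19.

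The genes whose call differed included Hoxc13, a regulator of hair keratin genes, at 0.0092 in WES-15376T and at 0.33 on the log2 scale in WES-14837T, where it lay in the type II keratin segment. The epidermal genes Ivl, Lor, Hrnr, Rptn and Tchh lay on chromosome 3 with Nes and Lmna, in segments with a log2 of 0.097 and 0.62. Ina and Col17a1 on chromosome 19 had 0.065 and -0.071 in WES-15376T, while both had 0.48 in the other line. Dsp, the linker of keratin filaments to desmosomes, had -0.036 and -0.47, and was lost in WES-14837T. Bfsp2 (a lens filament) had -0.62 and -0.058, and Klf4 had -0.59 and -0.091, both lost in WES-15376T. Plec and Eppk1, which bind keratin filaments, were gained in both lines in 1 segment of chromosome 15, at 0.49 and 0.31. Genes of the list named here whose call did not differ were chosen after the values were seen.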

How the data were processed

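Genomic DNA of lines 15376T and 14837T was sequenced after exome capture, 1 library for each line. The methods name a NimbleGen human exome capture, the labels a SureSelect human exome kit. The labels give the build mm10. The aligner, the copy-number reference and the filters are not given in the sources used here, and the values depend on them. The authors deposited, per segment and gene, a log2 ratio of coverage, a BAF as a fraction from 0 to 1, and a read depth as a coverage signal without normalization. Copy numbers were called by the authors. The tables of genes hold only genes whose segment has an absolute log2 from 0.40 upwards, and no table gives the variation among bins, so no interval was set.

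Each gene name was placed in the autosomal segment whose list holds it. Names in more than 1 autosomal segment (83 in WES-15376T and 120 in WES-14837T) were left out, which left 20952 names with 1 segment in both lines for the background shares. Gene positions, promoters and sequences came from RefSeq (GRCm38.p6), where 96 members had a position and 73 a promoter. The 15 further RefSeq genes with such names were not analysed here. Starts were written counting from 1. Scripts used Python 3.11.15, numpy 2.4.6, pandas 2.3.3 and matplotlib 3.10.9, and were tested on simulated data. The members and lists were chosen with earlier results of these data known. Named genes were 10 keratins of simple and stratified epithelia, the ends of each cluster, members beside a border, listed members with at least 2 bins, all members of chromosome 10, and listed partner genes whose call differed. Other names are said to be chosen afterwards. The RNA-seq samples and the tail DNA were not analysed here. A further engineered allele of the mice is not reported here.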

Additional observations from a re-analysis of the deposited data

How the results depend on the processing

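Of 71 values recomputed under another setting, 62 stayed within the limits set for them, and 60 of these kept their direction. The other 9 came from 2 kinds of change. With calls at an absolute log2 of 0.5, the members lost in WES-14837T went from 27 to 0 and those gained from 28 to 0, while in the list of related genes those gained in WES-15376T went from 2 to 0, those lost in WES-14837T from 13 to 1 and those gained there from 13 to 7. The log2 values of the keratin and Krtap segments of that line lie between -0.49 and 0.33, so all fall under 0.5 by construction. The members with a different call were then 24 instead of 31, with 0 in common, because the 24 Krtap genes of chromosomes 7 and 16 pass 0.5 in WES-15376T alone. With keratin genes alone, 0 members were lost in WES-15376T and 0 in the other line, and with Krtap genes alone 0 were gained in WES-14837T and 3 differed in call, since no keratin gene was lost and no Krtap gene was gained. At 0.3, with log2 recentred, with segments of at least 50 bins and with members placed by RefSeq position, each result stayed near its value. Against the depth of segments at 2 copies, instead of their own segment, the median log2 of the members' depth turned from 0.31 and 0.42 to -0.32 and -0.049, a change of sign that is smaller than the SD across genes and follows from setting lost segments against segments at 2 copies. Members with at least 3 bins gave no value, since there were 0. No paired analysis was possible because there is a single library for every line. Without replicates, and with 1 bin behind most depths of single genes, a difference in 1 gene cannot be told apart from the variation of a single bin.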
